A study of Bos taurus with 18 samples.

Results

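The 508 CpGs described here lie in 2 stretches of bovine chromosome 4, at LRGUK and at ITGB8, and were measured in bovine fibroblasts grown at low or high glucose with increasing EM. They were chosen by joining tested CpGs of this chromosome across gaps of up to 10 kb and keeping the stretches that hold 3 given positions, 98749133 and 98753884 for LRGUK and 28959908 for ITGB8 (build bosTau8). Of the 31500 CpGs tested in all, the stretches hold 1.61%, with 269 CpGs at LRGUK and 239 at ITGB8. The 3 positions were given because of their measured differences between treatments, so their values are described without a test. All counts of called CpGs at the 2 loci below leave them out. Position 98753884 had the smallest p-value of all CpGs in High ×2.5 vs. Low ×2.5 and position 28959908 in High ×5 vs. Low Control. The contrast behind position 98749133 is not named by the rule, so all its values are given as description.

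The cells were EBTr, a bovine line of embryonic tracheal fibroblasts, measured by reduced representation bisulfite sequencing (RRBS), in which DNA is cut with a restriction enzyme and bisulfite separates methylated from unmethylated cytosines. There were 18 libraries, 3 for each of 6 treatments, which cross a Low glucose medium (1 g/L) and a High glucose medium (4.5 g/L) with 3 levels of EM, named Control, ×2.5 and ×5. EM stands for epigenetic modifiers, here choline, folate, methionine and vitamin B12. All treatments share the same line and basal medium with serum, antibiotics and pyruvate, and the 3 libraries of a treatment came from 3 tubes of pelleted cells, which the sources do not describe as separate cultures. For methionine, the methods of the study give a single raised level in both supplemented media, whereas the labels give 2.5 and 5 times. The sample labels call the molecule RNA, but their protocol describes DNA. The identity of the cells could not be checked against marker genes because no expression was analysed.

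LRGUK encodes a protein with leucine-rich repeats and a guanylate kinase domain that is needed in the mouse for shaping of the sperm head and assembly of the sperm tail. ITGB8 encodes the integrin beta 8 subunit, which pairs with integrin alpha V at the cell surface and binds and activates latent TGF-beta. DNA methyltransferases place methyl groups on the cytosine of CpGs with S-adenosylmethionine as donor, and folate, choline, vitamin B12 and methionine all feed the cycle that makes this donor. Methylation at a promoter often goes with a silent gene, while CpGs in gene bodies and between genes are mostly methylated in vertebrate cells.

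The stretch at LRGUK ran over 50.1 kb, from position 98713998 to 98764072, and the stretch at ITGB8 over 53.2 kb, from 28957368 to 29010606. Both stood alone on the chromosome. The nearest tested CpGs outside lay 2760 kb before and 4880 kb after the stretch at LRGUK, and 756 kb before and 1620 kb after the stretch at ITGB8. Inside, the largest gap was 7279 bp at LRGUK and 9859 bp at ITGB8, the latter just inside the joining limit. The supplementary lists of the study, which name the closest transcription start site, give listed CpGs of the second stretch to ITGB8 alone. In the first stretch they give LRGUK, except for 2 CpGs near its end, at 98759342 and 98764072, which go to SLC35B4, a sugar transporter gene. In the newer assembly ARS-UCD2.0, SLC35B4 follows LRGUK and EXOC4 precedes it, and ITGB8 lies between MACC1 and ABCB5. Whether a CpG lies in an exon, an intron or between genes of bosTau8 was not determined here.

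Methylation was high at both loci. A level in percent was computed from each deposited M-value, which is the methylated over the unmethylated read number of a CpG as a log2 ratio, and still contains the offset that the authors added to both read numbers. The mean level over the 18 libraries was 69.5% at LRGUK and 69.1% at ITGB8, beside 68.9% over all CpGs, and the medians were 76.9%, 72.7% and 75.5%. Of the LRGUK CpGs, 115 (42.8%) lay over 80% and 7 (2.60%) under 20%. At ITGB8 these were 94 (39.3%) and 7 (2.93%), and among all CpGs 40.9% and 3.37%. Single CpGs came close to 0. The lowest was position 28976557 at ITGB8, with a mean of 1.95% and treatment means of 1.39% to 2.45%. At LRGUK it was position 98716437, with a mean of 5.87% and treatment means of 3.86% to 8.24%. The highest were position 28981096 at ITGB8 (96.0%) and 98731131 at LRGUK (94.9%).

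Low and high CpGs were interleaved within short distances. The CpGs fell into 25 blocks at LRGUK and 16 at ITGB8, separated by more than 300 bp, with 3 to 25 and 2 to 42 CpGs in a block. Block means ran from 49.6% to 81.9% at LRGUK and from 52.9% to 85.2% at ITGB8, but within a block the lowest and highest CpG differed by a median of 55.7 and 63.2 percentage points. CpGs 2 to 10 bp apart differed by a median of 7.46 points at LRGUK and 7.63 at ITGB8. At 11 to 50 bp the differences were 14.3 and 15.3 points, and CpGs over 300 bp apart in the same stretch differed by 16.8 and 17.9 points. Levels were thus most alike within 10 bp. The spread between libraries of a treatment was smaller than these differences, with a median SD of 4.19 points at LRGUK, 3.28 at ITGB8 and 4.06 over all CpGs. It was largest at position 98759479 of LRGUK (mean 58.2%, SD 10.5), whose Low Control libraries had 67.3%, 74.3% and 31.6%, and at position 28957653 of ITGB8 (mean 45%, SD 10.2).

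**Figure D1:**
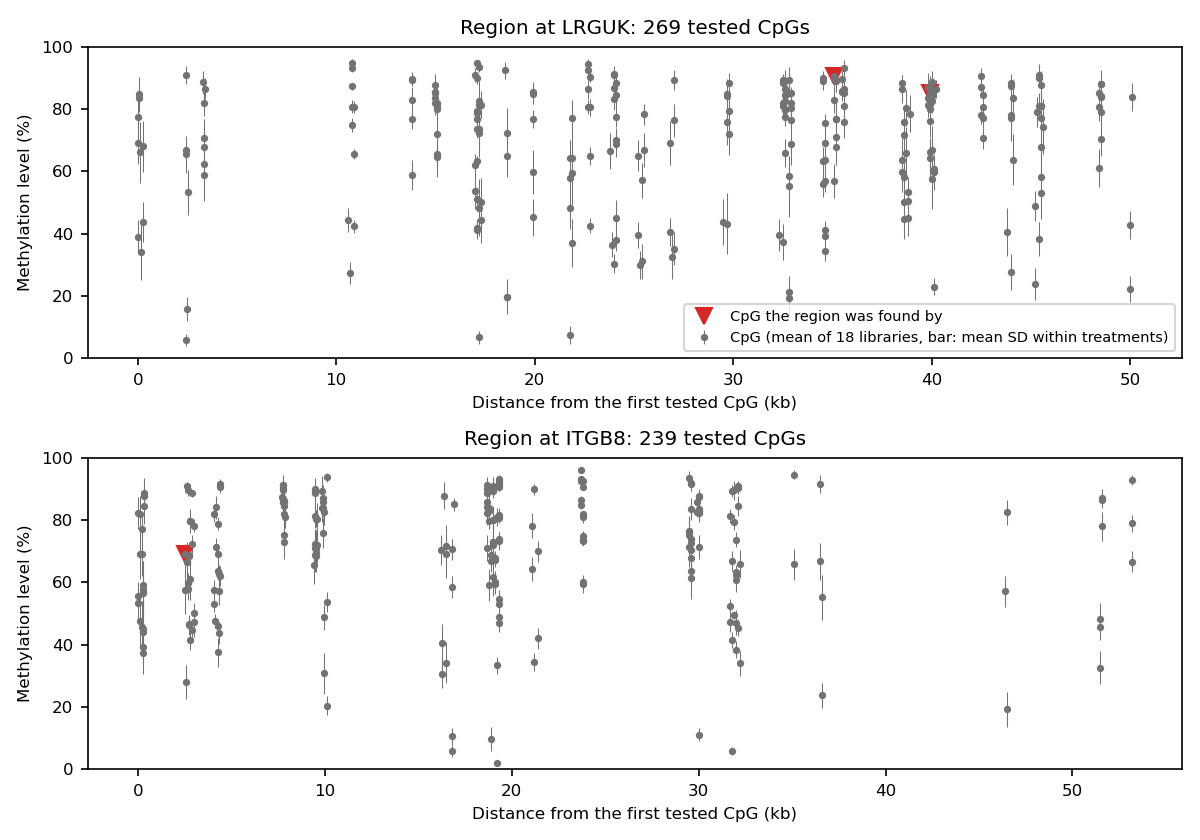
Mean methylation level in percent over 18 libraries (points) and mean SD within treatments (bars) of the 269 CpGs at LRGUK and 239 at ITGB8, by distance in kb from the first tested CpG. Red triangles mark the 3 CpGs that chose the stretches. Levels under 20% and over 80% occur in the same blocks.

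Cytosines 1 bp apart are normally the same CpG read on its 2 strands, or cytosines of neighbouring CpGs, which cannot be told apart without the sequence. There were 24 such pairs at LRGUK and 25 at ITGB8, and their levels differed by a median of 3.29 and 1.10 points. Over the 6516 pairs of all CpGs, the median was 1.83 points. A single pair went far outside this range. Position 28974175 of ITGB8 had a mean of 70.6% and its partner 28974176 had 5.85%, a gap of 64.7 points, while the largest gap at LRGUK was 10.0 points. The first cytosine ranged from 62.6% to 78.9% over the 18 libraries and the second from 2.87% to 10.1%, so all libraries showed the gap. Of all pairs, 143 (2.19%) differed by more than 20 points. This pair was picked out after its values were seen, and the sequence of the line at these cytosines was not examined.

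The average over each stretch, leaving out the 3 CpGs that chose them, differed little between treatments. At LRGUK it was 68.7% ± 1.75 (SD, n = 3) in Low Control, 69.6% ± 0.65 in Low ×2.5, 70.3% ± 0.48 in Low ×5, 69.7% ± 0.257 in High Control, 68.9% ± 0.677 in High ×2.5 and 68.8% ± 0.865 in High ×5. At ITGB8 it was 68.8% ± 0.926, 69.5% ± 0.178, 69.5% ± 0.482, 69.4% ± 0.313, 68.7% ± 0.800 and 68.6% ± 0.524 in the same order. Libraries ranged from 67.2% to 70.8% at LRGUK and from 68.1% to 69.9% at ITGB8, and the Low Control libraries at LRGUK, with 67.2% to 70.7%, spanned nearly all of it. Over all CpGs the treatment means ran from 68.2% in Low Control to 69.5% in Low ×5, so the stretches moved by about as much as the whole table. Low Control had the lowest mean of the 6 treatments at 70 of 267 LRGUK CpGs (26.2%) and 63 of 238 ITGB8 CpGs (26.5%), and at 28.4% of all CpGs. High ×5 had the lowest mean at 27% and 27.3%, and at 24.5% of all CpGs.

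The Low Control libraries were unlike each other. Over all CpGs the SD of the M-values was 1.77 in replicate 1, 1.63 in replicate 2 and 1.58 in replicate 3, and the median M-value was 1.68, 1.49 and 1.42. In the other 15 libraries the SD ran from 1.63 to 1.83 and the median from 1.47 to 1.74, so replicate 1 lay within this range and replicate 3 below it. Counts that rest on Low Control are therefore also given without each of its libraries. The depth of each library and CpG is not given and was not derived from the values. Its part in these differences was not tested.

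The first LRGUK position, 98749133, was highly methylated except in 2 Low Control libraries. Its level was 91.7%, 74.4% and 77.3% in Low Control, 91.3%, 92.8% and 94.1% in Low ×2.5, 94.7%, 93.3% and 94.6% in Low ×5, 97.7%, 94.1% and 93.5% in High Control, 91.0%, 90.0% and 91.2% in High ×2.5 and 92.7%, 86.7% and 89.7% in High ×5. Low Control replicates 2 and 3 lay below all other libraries, and replicate 1 lay among them. In Low Control replicate 3 the level of 77.3% recurred at 98749121 and 98749152. In the same library 63.6% was found at 98749164, 98749190, 98749195 and 98749214. Whether few reads lie behind these repeats was not tested. The treatment means were 81.1% ± 9.27 (SD, n = 3) in Low Control and 95.1% ± 2.25 in High Control, which differ by 2.16 in mean M-value (log2 scale, SE 0.45). High ×5 had 89.7% ± 3.01 and Low ×5 had 94.2% ± 0.772, a log2 difference of -0.87 (SE 0.45), so the sign of the glucose difference was opposite at the Control and ×5 levels of EM.

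The second LRGUK position, 98753884, was lowest in High ×2.5. Its level was 83.9%, 84.0% and 84.0% in Low Control, 89.8%, 91.5% and 88.7% in Low ×2.5, 86.0%, 88.5% and 86.4% in Low ×5, 89.9%, 87.0% and 91.5% in High Control, 83.3%, 78.0% and 74.3% in High ×2.5 and 80%, 83.3% and 83.3% in High ×5. The libraries of High ×2.5 and Low ×2.5 did not overlap, with means of 78.5% ± 4.55 and 90.0% ± 1.38 (SD, n = 3) and a log2 difference of -1.29 (SE 0.23). High ×2.5 also lay below High Control by 1.22 on the log2 scale (SE 0.23).

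The cytosine 1 bp after it, 98753885, did not show this pattern. Its treatment means were 87.0% ± 3.32 (SD, n = 3), 87.0% ± 1.44, 88.2% ± 3.12, 88.1% ± 2.23, 88.3% ± 3.17 and 84.7% ± 2.65, from Low Control to High ×5 in the order used above. In High ×2.5 its libraries had 89.7%, 84.7% and 90.6%, against 85.4%, 88.1% and 87.6% in Low ×2.5. The log2 difference between these treatments was 0.20 (SE 0.29, adjusted p = 1.0 by limma, adjusted over all CpGs by the Benjamini-Hochberg method), opposite in sign to that of 98753884. The difference between the 2 neighbouring cytosines was not tested.

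The ITGB8 position, 28959908, was highest in High ×5. Its level was 60.9%, 59.3% and 63.6% in Low Control, 68.0%, 63.5% and 70.6% in Low ×2.5, 66.4%, 59.4% and 61.4% in Low ×5, 65.6%, 72.3% and 75.7% in High Control, 68.4%, 70.3% and 72.4% in High ×2.5 and 85.2%, 83.3% and 80% in High ×5. The lowest High ×5 library, at 80%, lay above the highest of all others, at 75.7%. High ×5 and Low Control had means of 82.8% ± 2.63 and 61.3% ± 2.21 (SD, n = 3), a log2 difference of 1.62 (SE 0.22). High ×5 was above Low ×5 by 1.55, above High ×2.5 by 1.03 and above High Control by 0.96 on the log2 scale (SE 0.22 each). The difference between High ×2.5 and High Control was -0.07 (SE 0.22).

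**Figure D2:**
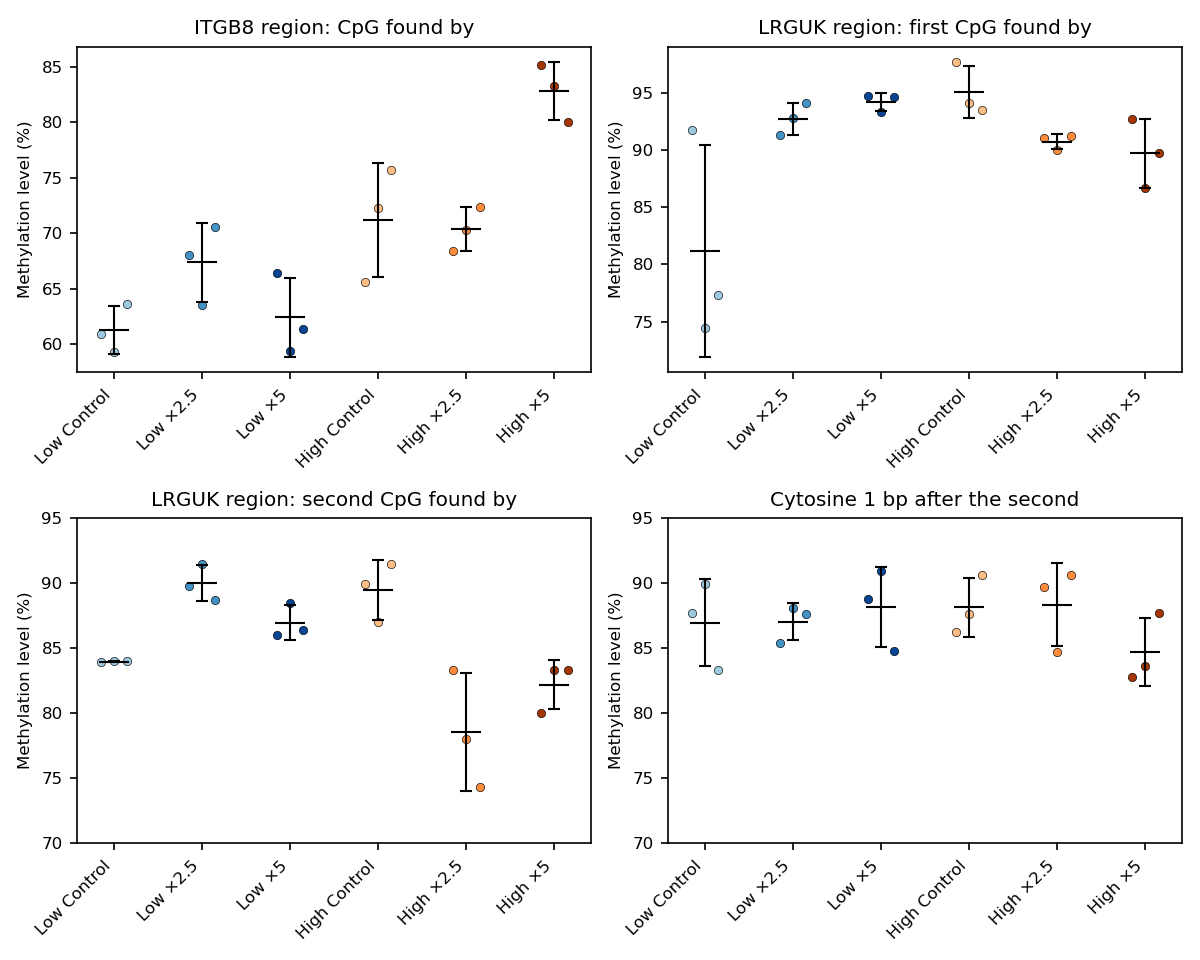
Methylation level in percent (vertical axes, which start above 0) in each library of the 6 treatments for the 3 CpGs that chose the stretches and for the cytosine 1 bp after 98753884, with mean and SD. The last 2 panels share an axis. High ×2.5 is low at 98753884 and not at its neighbour.

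Tested CpGs within 100 bp of the 3 positions shared their direction in part. The positions were chosen for large differences, so neighbours nearer to 0 follow from the choice, and their values are given as description. Around 98749133, 8 of 9 neighbours shared its sign in High Control vs. Low Control, with log2 differences of -0.11 to 0.61 and a median of 0.24 against its own 2.16. Their closest members, 98749140 at 7 bp and 98749121 at 12 bp, had 0.16 (SE 0.29, adjusted p = 0.934, limma) and 0.27 (SE 0.35, adjusted p = 0.897). Around 98753884, 7 of 16 neighbours shared its sign in High ×2.5 vs. Low ×2.5, with differences of -0.91 to 0.47. The largest of these was position 98753880, 4 bp before, with 82.3% ± 7.16 (SD, n = 3) in High ×2.5, 89.5% ± 4.46 in Low ×2.5, where the log2 difference was -0.91 (SE 0.47, adjusted p = 0.976, limma). Around 28959908 there were 3 neighbours, of which 1 shared its sign in High ×5 vs. Low Control, with differences of -0.08 to 0.42. The nearest, 28959916 at 8 bp, had 64.7% ± 2.10 in High ×5 and 57.6% ± 9.78 in Low Control (log2 difference 0.42, SE 0.39, adjusted p = 0.849, limma). Of these 28 neighbours, 0 had a p-value under 0.01 in the contrast shown by limma, and 0 had an unadjusted p-value under 0.05. In the other contrasts a single neighbour was called. It was 98753892, 8 bp after 98753884, which was lower in High ×5 than in High Control (76.7% ± 2.77 against 86.0% ± 5.63, log2 difference -0.96, SE 0.30, adjusted p = 0.648, limma).

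**Figure D3:**
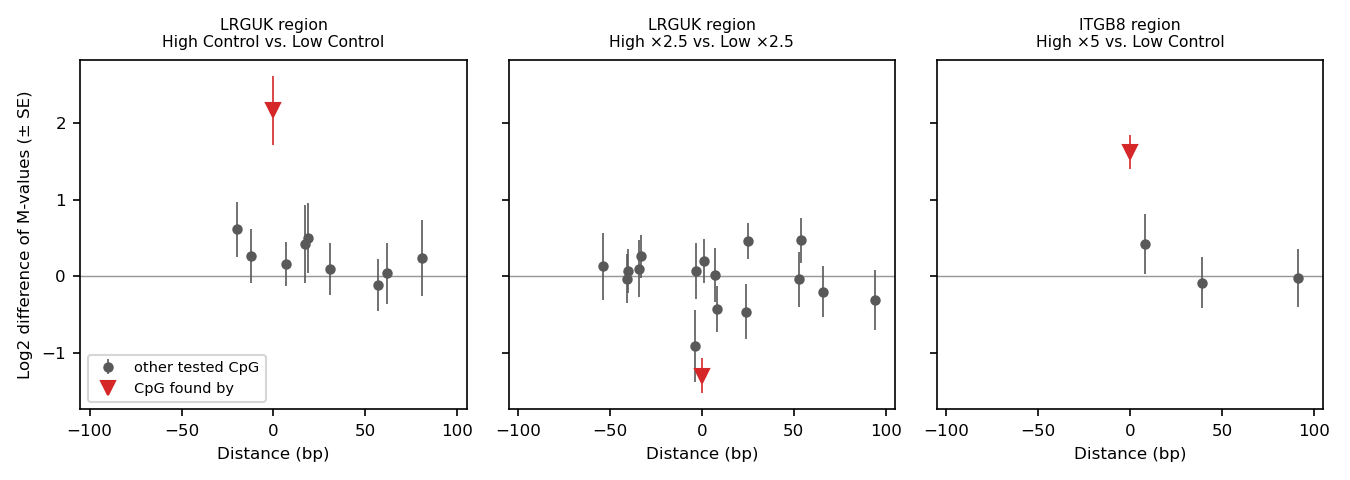
Log2 difference of M-values (± SE) of the 3 positions (red) and of the tested CpGs within 100 bp (grey), by distance in bp, in the contrast named above each panel. The 9, 16 and 3 neighbours lie on both sides of 0 in every panel, and the red points were chosen for their size.

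Calls below are CpGs with an unadjusted p-value under 0.01 in a limma fit of all 18 libraries, which is the threshold of the study. In simulated data, this fit called 1.03% and 1.09% of the CpGs that were given no difference. Over the 10 contrasts, 30 of 2670 tests at LRGUK (1.12%) and 25 of 2380 at ITGB8 (1.05%) were called, together 55 of 5050 (1.09%), against 1.49% for all CpGs. At least 1 call fell on 17 LRGUK CpGs and 16 ITGB8 CpGs, together 6.53% of the CpGs against 9.67% of all CpGs. With gaps of up to 10 kb, the shares at both loci were thus no larger than in the whole table. In the fit of all 18 libraries, 0 of the 505 CpGs had an adjusted p-value under 0.05 in any contrast. An unadjusted p-value under 0.05 was found for 4.55% to 9.11% of the CpGs in each contrast other than Low ×5 vs. Low ×2.5 (1.58%), where all CpGs gave 5.02% to 8.57% and 2.39%. Called CpGs were spread over 15 of 25 blocks at LRGUK and 7 of 16 at ITGB8. Their median level was 84.3% and 81.9%, and 11 of 17 and 8 of 16 lay over 80%.

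**Figure D4:**
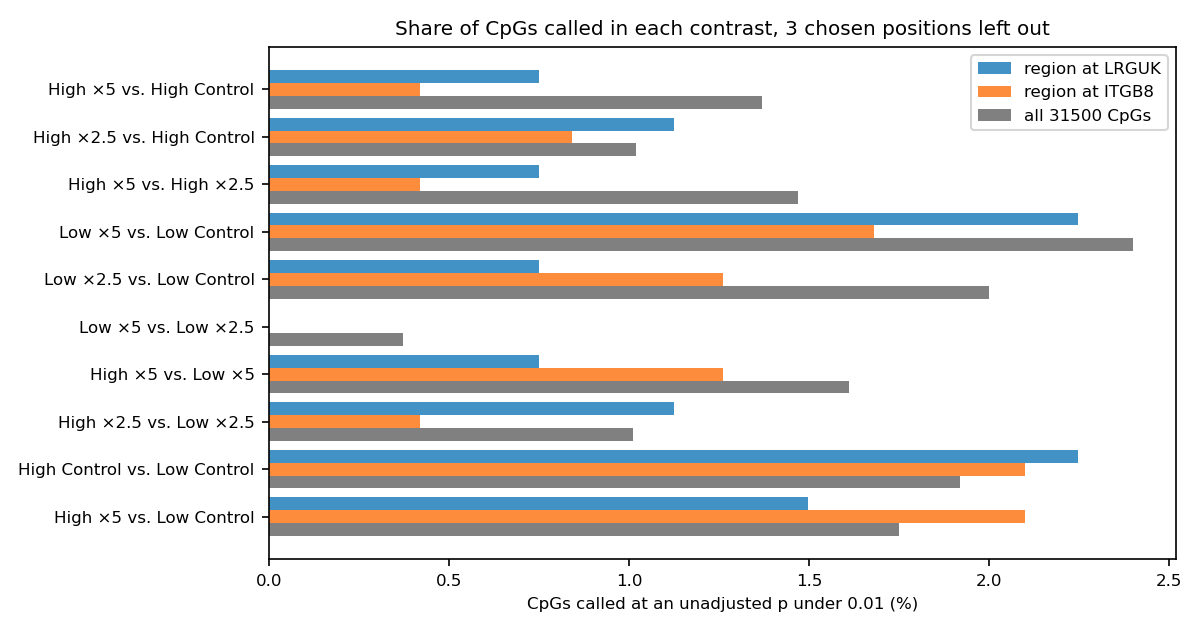
Percent of CpGs called at an unadjusted p-value under 0.01 (bars from 0) in each of the 10 contrasts, at LRGUK (267 CpGs) and ITGB8 (238), both without the 3 chosen positions, and among all 31500 CpGs. The bars of the stretches lie on either side of those of the whole table, and Low ×5 vs. Low ×2.5 has no call at either locus.

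High Control vs. Low Control gave 11 calls among the 505 CpGs (2.18%), against 1.92% of all CpGs. Of the 11, 8 were higher in High Control, as were 435 of 606 in the whole table. With each library centred on its median, 3 were higher and 4 lower. The split of all CpGs with libraries centred was not determined, here or for the comparisons below. The smallest p-value at LRGUK belonged to 98729022 (89.4% ± 1.52 against 72.6% ± 1.74, SD, n = 3, log2 difference 1.69, SE 0.40, adjusted p = 0.430, limma), which was named after its values were seen. At ITGB8 it belonged to 28965106, which was lower, with 84.4% ± 2.67 against 90.8% ± 1.87 (log2 difference -0.88, SE 0.24, adjusted p = 0.458, limma). Its libraries had 87.1%, 81.8% and 84.1% in High Control and 88.8%, 91.1% and 92.5% in Low Control, which do not overlap. Here and below, such separation of libraries is a description, since the CpGs were picked by their p-values. How many of all CpGs separate in this way was not counted. Without Low Control replicate 3, 28965106 was no longer called, with a log2 difference of -0.73.

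EM in low glucose was compared in 3 contrasts. Low ×5 vs. Low Control gave 10 calls (1.98% of the 505 CpGs, against 2.4% of all CpGs), 7 of them higher and 3 lower in Low ×5. Of the 757 calls among all CpGs, 562 were higher. With libraries centred on their median the split at the 2 loci was 3 higher and 7 lower, so the larger share changed sides. Whether the calls among all CpGs shift in the same way was not tested. At LRGUK the smallest p-value belonged to 98717367 (91.8% ± 1.73 against 76.3% ± 4.94, SD, n = 3, log2 difference 1.79, SE 0.39, adjusted p = 0.262, limma). At ITGB8, 28960385 had the smallest, with 80.5% ± 0.618 against 71.9% ± 4.81 (log2 difference 0.68, SE 0.21, adjusted p = 0.371, limma). This CpG was not called without Low Control replicate 2 or without replicate 3, nor with libraries centred.

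Low ×2.5 vs. Low Control gave 5 calls (0.99% of the 505 CpGs, against 2.0% of all CpGs), 4 higher and 1 lower, or 3 and 3 with libraries centred. Of the 629 calls among all CpGs, 481 were higher. At ITGB8 the smallest p-value belonged to 28976628, the CpG that was lower, with 92.8% ± 0.805 in Low ×2.5 and 96.6% ± 1.31 in Low Control (SD, n = 3, log2 difference -1.20, SE 0.32, adjusted p = 0.436, limma). Low ×5 vs. Low ×2.5 gave 0 calls with limma, where 0.371% of all CpGs were called and 8 of the 505 had an unadjusted p-value under 0.05. The smallest p-values were those of 98749511 at LRGUK (92.1% ± 2.35 against 87.3% ± 2.85, log2 difference 0.78, SE 0.32, adjusted p = 1.0, limma) and 28976335 at ITGB8 (95.3% ± 0.525 against 89.2% ± 4.73, log2 difference 1.17, SE 0.42, adjusted p = 1.0, limma). A fit with the level as a fraction called 1 CpG here.

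EM in high glucose gave 3 calls for High ×5 vs. High Control, where 1.37% of all CpGs were called, 0 higher and 3 lower in High ×5, or 1 and 1 with libraries centred. Of the 431 calls among all CpGs, 339 were lower. For High ×2.5 vs. High Control there were 5 calls, where 1.02% of all CpGs were called, 0 higher and 5 lower in High ×2.5, with the same split for centred libraries. Of the 321 calls among all CpGs, 213 were lower. Position 28976056 of ITGB8 was called in both contrasts, with 79.6% ± 4.27 in High Control, 64.2% ± 5.99 in High ×2.5 and 67.4% ± 2.29 in High ×5 (SD, n = 3). Its log2 differences from High Control were -1.13 (SE 0.27, adjusted p = 0.949, limma) and -0.93 (SE 0.27, adjusted p = 0.622, limma). The libraries of High Control, with 77.4%, 84.5% and 76.8%, lay above those of High ×2.5, with 68.6%, 57.4% and 66.7%. Without replicate 2 of all treatments the first difference was -0.69 and was not called.

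Between High ×5 and High ×2.5 there were 3 calls, where 1.47% of all CpGs were called, 1 higher and 2 lower. Of the 463 calls among all CpGs, 320 were lower. With libraries centred there were 5 at the 2 loci, 3 higher and 2 lower. At LRGUK the smallest p-value was that of 98757981, lower in High ×5, with 83.6% ± 2.41 against 90.7% ± 0.863 (SD, n = 3, log2 difference -0.93, SE 0.29, adjusted p = 0.643, limma). The same CpG had the smallest p-value at LRGUK in High ×5 vs. Low ×5, where Low ×5 had 91.5% ± 0.724 (log2 difference -1.07, SE 0.29, adjusted p = 0.543, limma). Its High ×5 libraries, with 86.4%, 82.4% and 82.1%, lay below the 3 libraries of either other treatment, all at 89.7% or more.

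Glucose with EM was compared at both raised levels. High ×5 vs. Low ×5 gave 5 calls (0.99% of the 505 CpGs, against 1.61% of all CpGs). Of the 506 calls among all CpGs, 410 were lower. At the 2 loci 0 were higher and 5 lower, or 2 and 3 with libraries centred. Besides 98757981, the lower CpGs included a pair 2 bp apart at ITGB8, 28976352 and 28976354, with log2 differences of -1.44 (SE 0.39, adjusted p = 0.543, limma) and -1.29 (SE 0.41, adjusted p = 0.579, limma), which were named after their values were seen. High ×2.5 vs. Low ×2.5 gave 4 calls (0.792% of the 505 CpGs, against 1.01% of all CpGs). Of the 317 calls among all CpGs, 220 were lower. At the 2 loci all were lower in High ×2.5, or 1 higher and 1 lower with libraries centred. At ITGB8 the single call was 28960264, with 85.2% ± 2.60 against 90.2% ± 1.03 (SD, n = 3, log2 difference -0.66, SE 0.19, adjusted p = 0.945, limma). High ×2.5 libraries had 82.9%, 88.0% and 84.7% and those of Low ×2.5 had 91.0%, 90.5% and 89.0%.

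High ×5 vs. Low Control, which lacks both additions, gave 9 calls (1.78% of the 505 CpGs, against 1.75% of all CpGs). Of these, 6 were higher and 3 lower, and the split was the same with libraries centred. Of the 552 calls among all CpGs, 296 were higher. At LRGUK the smallest p-value was that of 98714034, a less methylated CpG. Its level was 33.3%, 23.8% and 25% in Low Control, 31.4%, 37.3% and 38.3% in Low ×2.5, 40%, 44.4% and 40% in Low ×5, 40.9%, 30.4% and 43.6% in High Control, 44.1%, 35.3% and 43.8% in High ×2.5 and 45.5%, 60% and 43.3% in High ×5. The means went from 27.4% ± 5.19 in Low Control to 49.6% ± 9.07 in High ×5 (SD, n = 3, log2 difference 1.40, SE 0.29, adjusted p = 0.467, limma), and these 2 treatments did not overlap. It was also called in Low ×5 vs. Low Control (log2 difference 0.92, SE 0.29, adjusted p = 0.382, limma).

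The glucose effect averaged over EM levels gave 8 calls, where 1.08% of all CpGs were called, 2 higher and 6 lower at high glucose, or 2 and 3 with libraries centred. Of the 341 calls among all CpGs, 216 were lower. At LRGUK the smallest p-value was that of 98733857, higher at high glucose in each EM level, with 79.4% against 77.6% at Control, 81.0% against 73.4% at ×2.5 and 78.8% against 70.9% at ×5 (log2 difference 0.47, SE 0.14, adjusted p = 0.849, limma). By an F-test across the 6 treatments, 5 CpGs were called, where 1.44% of all CpGs were called.

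Whether the EM difference depends on glucose was tested as an interaction, the EM difference in high glucose minus that in low glucose. At ×2.5 there were 11 calls, where 1.85% of all CpGs were called, 1 positive and 10 negative. At ×5 there were 13, where 2.79% were called, 1 positive and 12 negative. Centring the libraries left 2 positive and 3 negative calls at either level. The interaction was already negative over the whole table, with a median of -0.12 at ×2.5 and -0.18 at ×5, and 446 of 583 and 701 of 880 calls were negative. Both interactions use Low Control.

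The 4 contrasts with Low Control and both interactions gave more calls when Low Control replicate 1 was left out. The calls at the 2 loci were then 25 in Low ×5 vs. Low Control, 23 in Low ×2.5 vs. Low Control, 27 in High Control vs. Low Control, 23 in High ×5 vs. Low Control, and 26 and 21 in the interactions at ×2.5 and ×5. The percent of all CpGs called was then higher too, with 4.94%, 4.49%, 4.26%, 3.24%, 3.53% and 4.88% in the same order. Without Low Control replicate 2 the calls were 5, 8, 5, 4, 5 and 11, beside 1.84%, 1.72%, 1.65%, 1.9%, 1.64% and 2.32% of all CpGs. Without replicate 3 they were 3, 2, 5, 3, 6 and 8, beside 1.5%, 1.3%, 1.34%, 1.74%, 1.46% and 2.09%. The averaged glucose effect, which also uses Low Control, had 6, 4 and 11 calls without replicates 1, 2 and 3, beside 1.38%, 1.23% and 1.36%. The number of calls in these comparisons thus depended on single libraries of Low Control.

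CpGs called in 4 contrasts, other than the 3 positions, were 98717367 and 98749531 at LRGUK and 28976628 at ITGB8. Position 98717367 was lowest in Low Control, with 81.8%, 72.2% and 75%, and had 87.1%, 90.5% and 88.7% in Low ×2.5, 90.0%, 93.4% and 91.9% in Low ×5, 85.0%, 87.5% and 94.2% in High Control, 90.7%, 81.6% and 83.3% in High ×2.5 and 91.4%, 87.0% and 86.5% in High ×5. It was called in all 4 contrasts that set another treatment against Low Control, with log2 differences of 1.79 to 1.23 (SE 0.39). These contrasts share the Low Control libraries and are not independent. The Low Control libraries overlapped with High ×2.5 alone.

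Position 28976628 of ITGB8 went the other way. Its level was 95.9%, 95.8% and 98.1% in Low Control, 93.4%, 93.2% and 91.9% in Low ×2.5, 94.3%, 93.7% and 93.0% in Low ×5, 92.5%, 92.3% and 95.7% in High Control, 93.8%, 91.7% and 95.3% in High ×2.5 and 90.4%, 91.7% and 89.4% in High ×5. The lowest Low Control library, at 95.8%, was above the other 15 libraries, the nearest of which had 95.7%. Against Low Control the log2 difference was -1.64 in High ×5 (SE 0.32, adjusted p = 0.406, limma), -1.01 in Low ×5 (adjusted p = 0.380) and -1.01 in High Control (adjusted p = 0.503). Its partner 1 bp before, 28976627, had 92.9% ± 0.890 in Low Control and 89.6% ± 2.11 in High ×5 (log2 difference -0.60, SE 0.23, adjusted p = 0.577, limma), the same direction without a call. In Low ×5 and Low ×2.5 the partner differed from Low Control by -0.05 and -0.01 (SE 0.23 each). With levels as fractions 28976628 was not called in Low ×2.5 vs. Low Control, and neither was it without Low Control replicate 3 (log2 difference -0.81).

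Position 98749531 of LRGUK was lowest at high glucose with EM. Its level was 88.1%, 92.9% and 89.5% in Low Control, 86.7%, 88.8% and 88.0% in Low ×2.5, 87.6%, 82.9% and 86.1% in Low ×5, 89.3%, 89.2% and 88.2% in High Control, 83.1%, 80.3% and 79.3% in High ×2.5 and 86.5%, 77.6% and 82.0% in High ×5. High ×2.5 lay below both High Control (log2 difference -0.92, SE 0.26, adjusted p = 0.949, limma) and Low ×2.5 (-0.77, SE 0.26, adjusted p = 0.945), and its libraries overlapped with neither. High ×5 lay below Low Control by 1.01 on the log2 scale (SE 0.26, adjusted p = 0.475, limma).

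**Figure D5:**
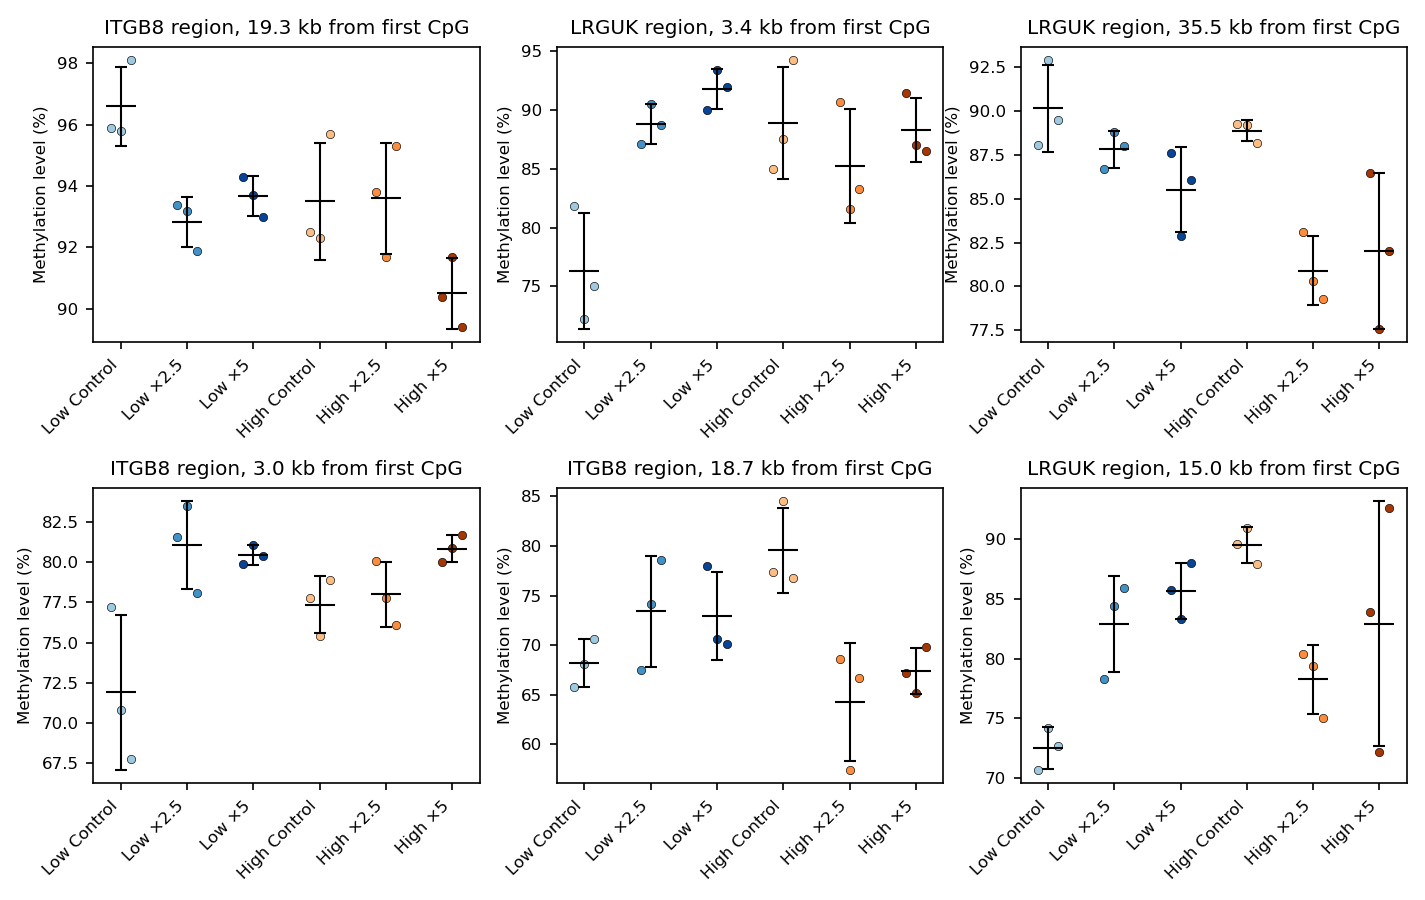
Methylation level in percent (vertical axes, which start above 0) in each library of the 6 treatments, with mean and SD, at the 6 CpGs called in 3 or 4 of the 10 contrasts, the 3 chosen positions left out. Panels give the locus and the distance in kb from its first tested CpG. Low Control is the lowest treatment at 3.4 and 15 kb of LRGUK and 3.0 kb of ITGB8 and the highest at 19.3 kb of ITGB8 and 35.5 kb of LRGUK.

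Called CpGs were compared with their own surroundings in the same way as the chosen positions. Outside the 3 positions, 54 calls had tested CpGs within 50 bp, and the calls had a median absolute log2 difference of 1.01. The median of the neighbours, taken in the direction of the call, was 0.18 at both loci together, and it had the sign of the call for 42 of 54 (77.8%). Over all CpGs, the values were 1.10, 0.16 and 73.8%. A neighbour was called in the same direction for 7 of the 54 calls (13%), against 15.6% over all CpGs. For the 11 calls with a cytosine 1 bp away, the call had a median of 1.19 and the partner 0.05 in the same direction, with the same sign in 8 (72.7%, and 60.3% over all CpGs). At LRGUK the sign was shared in 3 of 6 (partner median -0.08), and at ITGB8 in 5 of 5 (0.32). Position 28976628 gave 4 of the ITGB8 calls, and 98729022 gave 3 of those at LRGUK. Neighbouring CpGs can share reads, and a CpG can be called in several contrasts that share libraries. These values are therefore not independent.

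Mean M-values were also tested over clusters of at least 3 CpGs less than 100 bp apart. The 2 stretches held 47 clusters, and in the 10 contrasts 7 of 470 tests (1.49%) were called, against 1.84% over all clusters. The smallest p-value was that of a cluster of 6 CpGs at ITGB8, from 29008841 to 29008956, which was lower in High ×5 than in Low Control (log2 difference -0.51, SE 0.12, adjusted p = 0.313, limma over clusters) and than in High Control (-0.36, SE 0.12, adjusted p = 0.498). A cluster of 3 CpGs from 29003803 to 29003885 (-0.68, SE 0.19) and a cluster of 5 at LRGUK from 98732540 to 98732632 (-0.47, SE 0.16) were lower in High ×2.5 than in High Control. High ×2.5 was also below Low ×2.5 in 11 CpGs of ITGB8 from 28976035 to 28976178 (-0.40, SE 0.12) and in 7 of LRGUK from 98739205 to 98739480 (-0.44, SE 0.12). The remaining call was 12 CpGs of LRGUK from 98729002 to 98729122, which were higher in Low ×5 than in Low Control (0.55, SE 0.16, adjusted p = 0.195, limma over clusters). Of the clusters called in the 10 contrasts, 0 held any of the 3 chosen positions.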

How the data were processed

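Reads were trimmed by the authors (Cutadapt), aligned to bosTau8 and turned into methylation calls (Bismark 0.22.3), of which CpG cytosines that passed a coverage filter remained. The deposited values are M-values on a log2 scale, 1 per CpG and library. The offset in both read numbers and the depth behind a value are not given in the sources used here, so no counting interval was computed. An offset pulls M-values from few reads toward 0. The 18 columns were assigned to treatments by the sample labels, with 3 libraries each. Between 2 libraries at most 1.18% of the values were equal.

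Levels in percent were computed as 100 × 2 to the power M / (1 + 2 to the power M). Two-sided tests of the M-values used limma 3.58.1 (R 4.3.3, eBayes with 4.11 prior degrees of freedom) in a single fit of the 18 libraries, with a mean for each treatment, and p-values were adjusted by Benjamini-Hochberg over all 31500 CpGs. The authors called CpGs with edgeR on reads. Contrast 6 of their list repeats contrast 4 and was read as Low ×5 vs. Low ×2.5. Replicate libraries may be technical, so p-values measure only the spread between these libraries. Libraries were not rescaled except where stated. The fit was tested on simulated data, where it called 54% of the CpGs given a log2 difference of 1 in High ×5 vs. Low Control.

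The CpGs, the stretches and the tests were chosen with earlier results of these data known. Named CpGs are the 3 chosen positions, the CpGs within 100 bp of them, CpGs called in at least 4 contrasts, those with the smallest p-value of a stretch in a comparison, and those with the lowest or highest level or largest SD. Others are marked as named after their values were seen. Same-numbered libraries did not deviate together (correlations of -0.11 to 0.12, with 1 of 45 pairs over 0.1), so the replicate number was not used. Gene order was taken from RefSeq (ARS-UCD2.0), without coordinates. Levels and counts were computed in Python 3.11.15 (numpy 2.4.6, pandas 2.3.3), and figures with matplotlib 3.10.9. Counts of called CpGs leave out the 3 chosen positions in every setting, while cluster means keep them. The alternatives were the 6 libraries of a contrast alone, a replicate block, centring, quantile normalization, levels as fractions, robust and trended eBayes, CpGs with a mean level of 10% to 90%, each replicate left out, gaps of 1 kb and clusters within 50 bp, and, added after seeing the data, each Low Control library left out.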

Additional observations from a re-analysis of the deposited data

Results flagged for a closer look

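At 7 CpGs named by rule, outside the 3 chosen positions, the EM difference in high glucose departed from that in low glucose. The interaction test gave them an unadjusted p-value under 0.01, with 1.85% of all CpGs called at ×2.5 and 2.79% at ×5. None of these interactions had an adjusted p-value under 0.05 (0.266 to 0.523, limma). At LRGUK, 98717367 had interactions of -1.81 at ×2.5 and -1.96 at ×5 (SE 0.55 each), and 98757981 had -1.37 at ×5 (SE 0.42). Position 98729022, named after its values were seen, was called too, with -2.13 at ×2.5 and -1.81 at ×5 (SE 0.57 each). At ITGB8, 28976035 had -1.69 at ×2.5 and -1.98 at ×5 (SE 0.57 each), and 28976056 had -1.52 at ×2.5 and -1.28 at ×5 (SE 0.39 each). Both ITGB8 CpGs were named for the smallest p-value of an interaction, so their place here follows from the choice. Position 28960264 had -0.96 at ×2.5 and -0.82 at ×5 (SE 0.27 each), and 28959999, which lies 91 bp from 28959908, had -1.61 at ×5 (SE 0.54). Position 28965106 was the single positive value, 1.01 at ×2.5 (SE 0.34). For 28976035 the means were 88.8% ± 1.95 in Low Control, 94.5% ± 2.0 in Low ×5, 93.3% ± 2.77 in High Control and 89.2% ± 2.0 in High ×5 (SD, n = 3). All of these values use Low Control, whose libraries were unlike each other.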

How the results depend on the processing

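Outside the 3 chosen positions, 15 values of named CpGs were recalculated 171 times in all. Most were named for a small p-value, so their direction was likely to hold, and it did in 171. The call was lost in 34 and gained in 1. An adjusted p-value under 0.05 at the 2 loci appeared in alternatives at the chosen positions 28959908 (centring, quantile normalization, levels as fractions, robust and trended eBayes, CpGs of 10% to 90%) and 98749133 (without Low Control replicate 1) alone, which is no test of them.

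Counts of calls moved more, where those of CpGs leave out the chosen positions. Gaps of up to 1 kb left 69 CpGs at LRGUK and 23 at ITGB8, chosen positions included. The 10 contrasts then gave 6 calls at LRGUK and 8 at ITGB8. As a share of tests, this was below the 1.49% of all CpGs at LRGUK and above it at ITGB8. Fits of the 6 libraries of a contrast gave 15 at ITGB8, 8 in High ×5 vs. Low ×5, 2 in High Control vs. Low Control and 3 in High ×5 vs. Low Control. Of all CpGs, 2.03%, 1.17% and 0.625% were called in these contrasts. Centring gave 5 in High ×5 vs. High ×2.5, 2 in High ×2.5 vs. Low ×2.5, 7 in High Control vs. Low Control, and 5 each in the averaged glucose effect and both interactions. The shares of all CpGs were 1.51%, 1.0%, 1.83%, 1.12%, 1.7% and 2.37% in this order. Quantile normalization gave 1 in High ×5 vs. High Control, 8 in High ×5 vs. High ×2.5, 1 in High ×2.5 vs. Low ×2.5, 7 in High Control vs. Low Control, 5 in the averaged glucose effect, 6 and 1 in the interactions at ×2.5 and ×5 and 14 clusters. Apart from clusters, it called 1.18%, 1.64%, 0.927%, 1.67%, 1.17%, 1.44% and 1.61% of all CpGs, in this order. Robust and trended eBayes gave 2 in High ×2.5 vs. Low ×2.5, 5 in the averaged glucose effect and 6 in the interaction at ×2.5, beside 0.959%, 1.01% and 1.72% of all CpGs. CpGs of 10% to 90% gave 6 in Low ×5 vs. Low Control, beside 1.87% of all CpGs kept by this filter. Levels as fractions gave 1 in Low ×5 vs. Low ×2.5, beside 0.283% of all CpGs, and clusters within 50 bp gave 12. The causes were not tested, apart from the fewer CpGs or libraries that some settings leave. With the replicate number as a block (replicate block), there were 5 calls in High ×5 vs. High ×2.5, 1 in Low ×5 vs. Low ×2.5, 4 in the averaged glucose effect and 3 in the F-test, and no other count moved by over 1.5 times. The block fit called 1.47%, 0.444%, 1.1% and 1.46% of all CpGs there.

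Leaving out a replicate of all treatments or a single Low Control library gave 16 to 65 calls at LRGUK and 14 to 58 at ITGB8, the highest in both without Low Control replicate 1. By contrast the ranges were 1 to 7 (High ×5 vs. High Control), 4 to 7 (High ×2.5 vs. High Control), 2 to 5 (High ×5 vs. High ×2.5), 3 to 25 (Low ×5 vs. Low Control), 2 to 23 (Low ×2.5 vs. Low Control), 0 to 3 (Low ×5 vs. Low ×2.5), 4 to 9 (High ×5 vs. Low ×5), 1 to 7 (High ×2.5 vs. Low ×2.5), 4 to 27 (High Control vs. Low Control) and 3 to 23 (High ×5 vs. Low Control). They were 2 to 11 for the averaged glucose effect, 4 to 26 and 4 to 21 for the interactions at ×2.5 and ×5, and 1 to 14 for the F-test. The shares of all CpGs called moved too. In the same order they were 0.857% to 1.81%, 0.81% to 1.37%, 1.1% to 1.9%, 1.05% to 4.94% and 1.03% to 4.49%. Next came 0.378% to 0.479%, 0.867% to 2.12%, 0.787% to 1.47%, 1.12% to 4.26% and 1.29% to 3.24%. The last were 0.8% to 1.38%, 0.99% to 3.53%, 1.4% to 4.88% and 0.73% to 2.71%. Leaving out a replicate of all treatments gave 2 to 9 clusters. Since depth is not given, a CpG without a call may differ by less than these 3 libraries per treatment can show.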
